A study of Equus caballus with 18 samples.

Results

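The genes described here are 5 of the 25239 Ensembl genes in a count table of 18 skeletal muscles from 1 male Jeju horse, a horse breed of Jeju in South Korea. They were chosen by identifier, from their counts in groups A and B, as the genes that switch between these groups: ENSECAG00000000651, ENSECAG00000013861 and ENSECAG00000018234 were found in group A and nearly absent from group B, and ENSECAG00000014997 and ENSECAG00000017415 were higher in group B. The labels name no treatment, the muscles were collected in the hot carcass and frozen, and the study gives a date of birth but no date of sampling from which an age would follow. Each muscle has 1 library, so the 9 muscles of a group stand in for replicates of that group, and their spread holds the difference between muscles as well as technical error. The parts of the biceps femoris are counted as separate muscles throughout, although they belong to 1 muscle and are not independent.

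Group A holds the caput longum of the triceps brachii, biceps brachii, infraspinatus, supraspinatus, rhomboideus, trapezius, extensor digitorum communis, longissimus and, of the biceps femoris, its caudal part. Group B holds the omohyoideus, extensor carpi radialis, semitendinosus, gluteus superficialis, the vertebral and middle parts of the biceps femoris, extensor digitorum longus, extensor digitorum lateralis and pectoralis major, which the study's drawing of the muscles calls pectoralis ascendens. The study formed these groups by clustering the same counts. The counts of the 5 genes in A vs. B are therefore given as a description and without a test.

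Skeletal muscles differ in their mix of slow oxidative and fast glycolytic fibres, and they also keep part of the gene expression of the body region in which they developed. Neighbouring muscles, and parts of the same muscle, need not have the same fibre mix. In tissue RNA, fewer cells of a type and less RNA per cell cannot be told apart. The files pair no identifier with a gene name, so the function of the 5 genes is not known here, and marker genes of muscle or of other cell types could not be looked up.

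The totals of counted reads lay between 33537488 and 39254160 in group A and between 31395013 and 50508515 in group B. At least 10 counts were found for 12243 to 13349 genes per library in group A and for 12465 to 13550 genes in group B. The most abundant gene took 24.1% to 33.9% of the counts in group A and 24.6% to 39.1% in group B. These ranges overlap, and their part in the values of the 5 genes was not tested.

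ENSECAG00000013861 was found in each muscle of group A. It had 35 counts in the caput longum of the triceps brachii, 53 in the biceps brachii, 55 in the infraspinatus, 37 in the supraspinatus, 42 in the rhomboideus, 35 in the trapezius, 58 in the extensor digitorum communis, 48 in the longissimus and 35 in the caudal biceps femoris. In group B it had 1 count in the pectoralis major and 0 counts in the other 8 muscles. The groups did not overlap: the lowest muscle of group A had 35 counts and the highest of group B had 1. Summed over the groups, 398 of 332370581 counted reads fell on this gene in group A and 1 of 357088062 in group B.

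ENSECAG00000018234 had a similar level. Its counts were 45 in the caput longum of the triceps brachii, 46 in the biceps brachii, 41 in the infraspinatus, 48 in the supraspinatus, 57 in the rhomboideus, 40 in the trapezius, 25 in the extensor digitorum communis, 35 in the longissimus and 33 in the caudal biceps femoris. In group B it had 3 counts in the pectoralis major and 0 in the other 8 muscles. The extensor digitorum communis, lowest for this gene within group A, was the muscle with the most counts of ENSECAG00000013861, before scaling to library size.

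ENSECAG00000000651 was the lowest of the 3 genes found in group A. It had 19 counts in the caput longum of the triceps brachii, 15 in the biceps brachii, 21 in the infraspinatus, 25 in the supraspinatus, 24 in the rhomboideus, 20 in the trapezius, 15 in the extensor digitorum communis, 10 in the longissimus and 11 in the caudal biceps femoris. In group B it had 2 counts in the omohyoideus and 0 in the other 8 muscles. The muscles with the fewest counts within group A, the longissimus and the caudal biceps femoris, are the trunk muscle and the hindlimb muscle of that group.

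**Figure D1:**
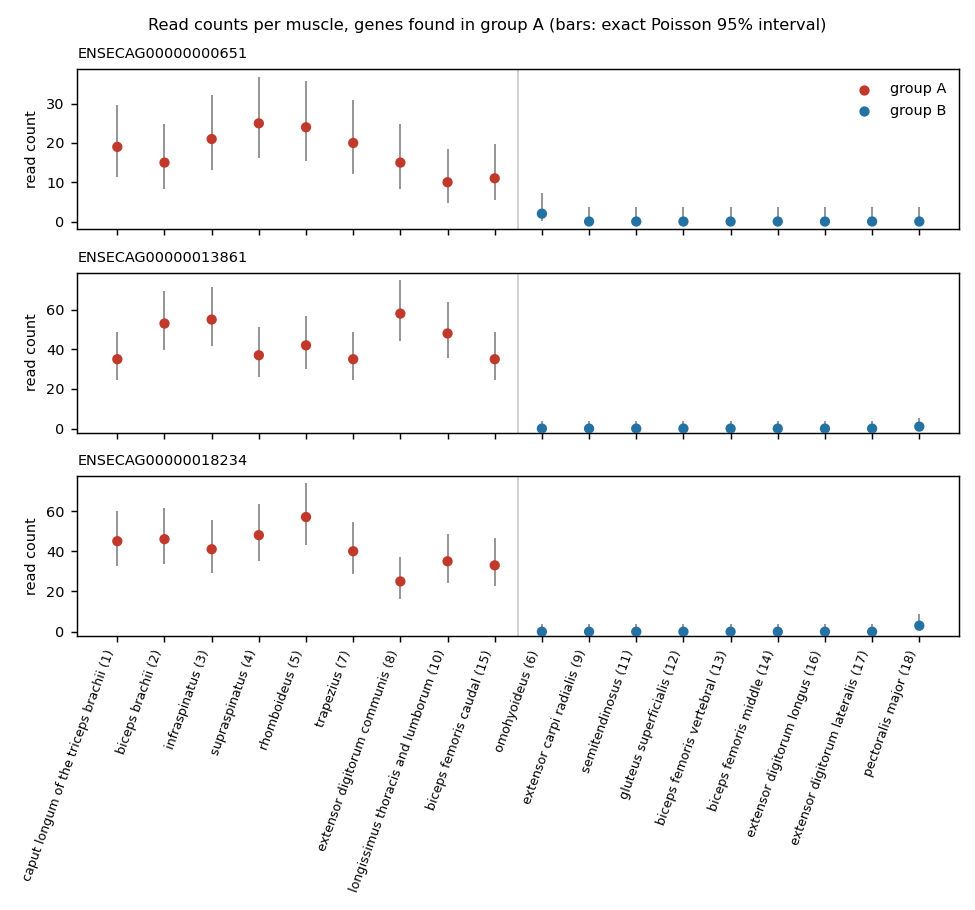
Read counts (y axis, 1 panel per gene) of the 3 genes found in group A in each of the 18 muscles (x axis, with muscle numbers), group A in red and group B in blue, with exact Poisson 95% intervals. The points of group A sit between 10 and 58 counts, and those of group B at 0 except in the omohyoideus and the pectoralis major, where they reach 2 and 3.

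After scaling to library size (CPM, with library sizes adjusted by the TMM method of edgeR), the level in group A was 1.22 ± 0.26 for ENSECAG00000013861 and 1.14 ± 0.278 for ENSECAG00000018234 (SD, n = 9 muscles). ENSECAG00000000651 had a median of 0.552 CPM there, between 0.266 in the longissimus and 0.663 in the supraspinatus. In every library of group B the count was at most 3, which was taken as the floor of detection in a library. Against 3 counts in the library of group B where they weigh most, ENSECAG00000013861 was at least 12.9-fold, ENSECAG00000018234 at least 12.1-fold and ENSECAG00000000651 at least 5.25-fold higher in the mean of group A. At the median CPM of group A, the libraries of group B would have held 36.3 to 62.0 counts of ENSECAG00000013861, 37.8 to 64.6 of ENSECAG00000018234 and 17.6 to 30.1 of ENSECAG00000000651. The counts found were 1, 3 and 2 at most. The 3 counts of ENSECAG00000018234 in the pectoralis major come to 5.82% of the median CPM of group A, and the 2 counts of ENSECAG00000000651 in the omohyoideus to 8.18%.

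Within group A the 3 genes stayed within a narrow range of levels. Their coefficients of variation over the 9 muscles were 21.4% for ENSECAG00000013861, 24.5% for ENSECAG00000018234 and 32.4% for ENSECAG00000000651. The variance of their counts was 1.95, 2.54 and 1.89 times that of Poisson counting at an equal CPM. The sum of the 3 genes lay between 79 counts in the caudal biceps femoris and 123 in the rhomboideus, with a median of 99, against 0 to 4 counts in group B. The share of ENSECAG00000013861 in this sum ranged from 33.6% in the supraspinatus to 59.2% in the extensor digitorum communis, and that of ENSECAG00000018234 from 25.5% in the extensor digitorum communis to 46.3% in the rhomboideus. ENSECAG00000000651 made up 10.8% of the sum in the longissimus and 22.7% in the supraspinatus.

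The genes that share the step between groups did not all vary together inside group A. As a description over 9 muscles, which come from the same animal and have few counts for these genes, Pearson's r of log2 CPM was 0.71 between ENSECAG00000000651 and ENSECAG00000018234, -0.05 between ENSECAG00000000651 and ENSECAG00000013861, and -0.20 between ENSECAG00000013861 and ENSECAG00000018234. Spearman's rho was 0.78, 0.05 and -0.03. Over all 18 muscles the same pairs had r of 0.96, 0.96 and 0.99, a measure that includes the step between groups by which they were chosen.

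The lowest count of these 3 genes in group A was 10 and their highest in group B was 3. With limits at these values, which come from the genes themselves, no other gene of the table meets both, and a limit of 4 counts in group B adds ENSECAG00000017274. It had 35 to 58 counts in group A with a median of 43, and 4 counts in the omohyoideus, 1 in the extensor digitorum lateralis, 4 in the pectoralis major and 0 in the other 6 muscles of group B. With the groups exchanged, the limits of 10 and 3 counts were met by 0 genes. Of all genes in the table, 54 (0.214%) had all counts of group A above those of group B, and 109 (0.432%) had all counts of group B above those of group A. The 3 genes found in group A are among the former and the 2 higher in group B among the latter. They were chosen from their counts in these groups.

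The 2 genes higher in group B had reads in all 18 muscles. ENSECAG00000014997 had 34 counts in the omohyoideus, 23 in the extensor carpi radialis, 132 in the semitendinosus, 48 in the gluteus superficialis, 58 in the vertebral and 68 in the middle biceps femoris, 18 in the extensor digitorum longus, 58 in the extensor digitorum lateralis and 88 in the pectoralis major. In group A it had 12 counts in the caput longum of the triceps brachii, 4 in the biceps brachii, 12 in the infraspinatus, 6 in the supraspinatus, 4 in the rhomboideus, 5 in the trapezius, 3 in the extensor digitorum communis, 8 in the longissimus and 3 in the caudal biceps femoris. The lowest muscle of group B, the extensor digitorum longus, had 18 counts and the highest muscles of group A had 12, so the groups came close without overlapping.

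ENSECAG00000017415 had 50 counts in the omohyoideus, 41 in the extensor carpi radialis, 108 in the semitendinosus, 69 in the gluteus superficialis, 238 in the vertebral and 82 in the middle biceps femoris, 46 in the extensor digitorum longus, 147 in the extensor digitorum lateralis and 46 in the pectoralis major. In group A it had 3 counts in the caput longum of the triceps brachii, 7 in the biceps brachii, 14 in the infraspinatus, 7 in the supraspinatus, 13 in the rhomboideus, 25 in the trapezius, 7 in the extensor digitorum communis, 17 in the longissimus and 13 in the caudal biceps femoris. The trapezius was the highest muscle of group A and the extensor carpi radialis the lowest of group B, at 25 and 41 counts. The vertebral biceps femoris and the extensor digitorum lateralis stood highest in group B.

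**Figure D2:**
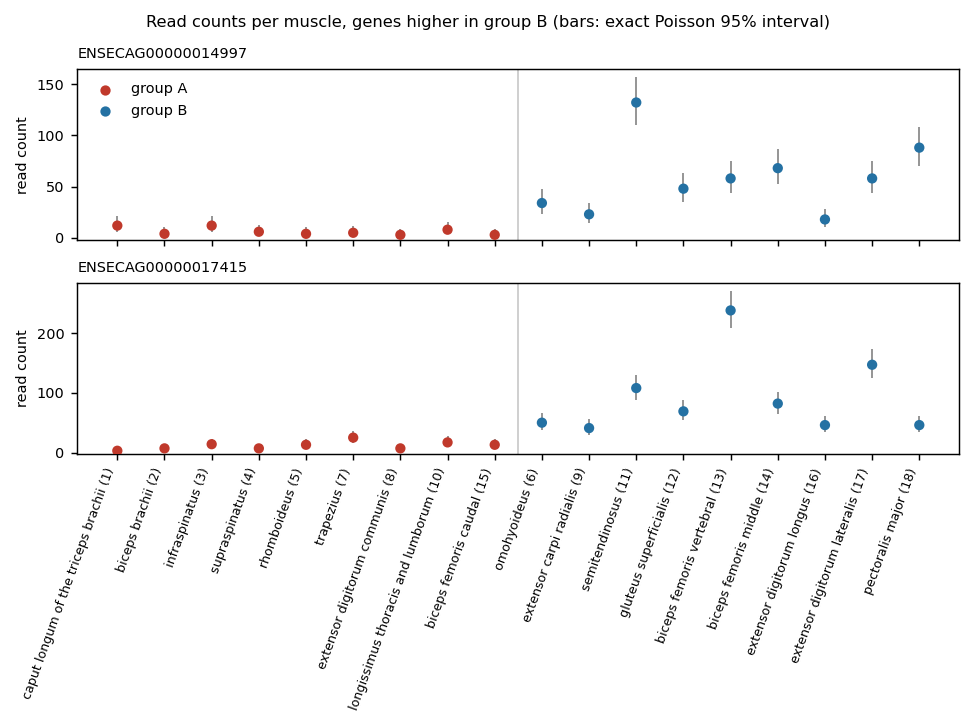
Read counts (y axis, 1 panel per gene) of the 2 genes higher in group B in each of the 18 muscles (x axis, with muscle numbers), group A in red and group B in blue, with exact Poisson 95% intervals. Group A sits between 3 and 25 counts, and group B spreads from 18 counts in the extensor digitorum longus for ENSECAG00000014997 to 238 in the vertebral biceps femoris for ENSECAG00000017415.

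The level of ENSECAG00000014997 was 1.49 ± 0.965 CPM in group B and 0.18 ± 0.116 CPM in group A (SD, n = 9 muscles each), an 8.24-fold ratio of means and a 9.79-fold ratio of medians. That of ENSECAG00000017415 was 2.31 ± 1.58 CPM in group B and 0.324 ± 0.187 CPM in group A, a 7.12-fold ratio of means and a 3.60-fold ratio of medians. The ratio of medians of ENSECAG00000017415 was 4.98 on plain library totals, and 5.45 when the omohyoideus, the extensor carpi radialis, the extensor digitorum longus or the pectoralis major was left out. The lowest CPM in group B was 1.29 times the highest in group A for ENSECAG00000014997 and 1.53 times for ENSECAG00000017415. edgeR called 6.52% of all 12738 genes tested in A vs. B, 3.68% higher in group A and 2.84% higher in group B, a contrast that the choice of the genes used. ENSECAG00000000651 did not pass its filter on low counts, and the other 4 genes did.

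Unlike the genes found in group A, these 2 genes varied widely inside the group where they were high. Their coefficients of variation in group B were 64.9% and 68.2%, and the variance of their counts was 24.0 and 45.2 times that of Poisson counting at an equal CPM for ENSECAG00000014997 and ENSECAG00000017415. In group A, where they were low, the coefficients of variation were 64.6% and 57.5% in the same order. The variance of the counts there was 2.56 and 3.86 times that of Poisson counting. Their highest muscles differed, the semitendinosus at 3.53 CPM for ENSECAG00000014997 and the vertebral biceps femoris at 5.54 CPM for ENSECAG00000017415. The ratio of ENSECAG00000017415 to ENSECAG00000014997 in CPM ran from 0.523 in the pectoralis major to 4.10 in the vertebral biceps femoris within group B. Within group B, Pearson's r of their log2 CPM was 0.51 and Spearman's rho 0.37, and within group A these were -0.09 and 0.13, as a description over 9 muscles each.

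By the study's subgroups, which were also formed from these counts, ENSECAG00000014997 was at 0.879 to 3.53 CPM in B1 (n = 5 muscles), 0.768 and 1.54 CPM in the 2 muscles of B2 and 0.479 and 0.68 CPM in the 2 extensors of B3. ENSECAG00000017415 was at 1.06 to 5.54 CPM in B1, 1.13 and 3.91 CPM in B2 and 1.21 and 1.22 CPM in B3. The ranges of B1 and B2 overlapped for both genes. In group A, ENSECAG00000014997 was at 0.159 to 0.372 CPM in A1 (n = 4) and at 0.0763 to 0.138 CPM in A2 (n = 3) and 0.0818 to 0.103 CPM in A3 (n = 2), values that rest on 3 to 12 counts. Subgroup levels of ENSECAG00000013861 overlapped throughout, at 0.981 to 1.71 CPM in A1, 0.966 to 1.48 in A2 and 0.955 to 1.36 in A3.

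**Figure D3:**
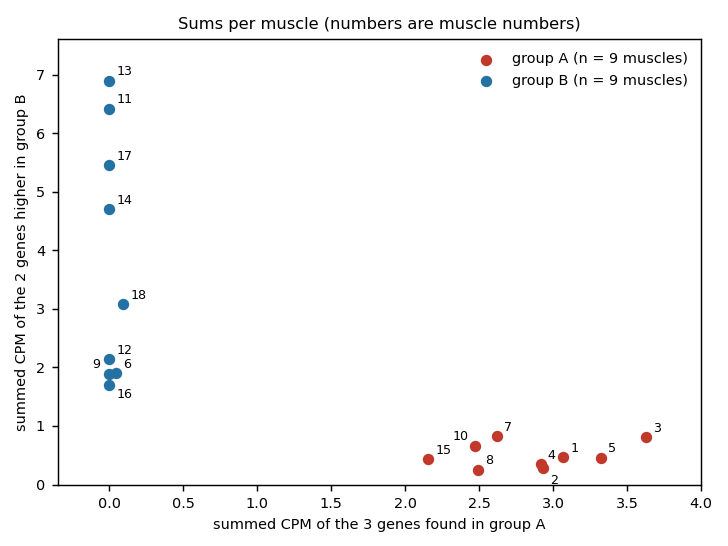
Summed CPM of the 3 genes found in group A (x axis) against the summed CPM of the 2 genes higher in group B (y axis), 1 point per muscle with its number, group A in red and group B in blue. Group A lies between 2.15 and 3.63 on the x axis with at most 0.828 on the y axis, and group B lies within 0.0919 on the x axis and between 1.70 and 6.89 on the y axis.

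The 3 parts of the biceps femoris, a large hindlimb muscle with several heads, were sequenced separately and fell on both sides. The caudal part is in group A, and the vertebral and middle parts are in group B. In the vertebral and middle parts, each of the 3 genes found in group A had 0 counts, and the exact Poisson 95% interval of 0 counts reaches 3.69 counts, which is 0.0859 CPM in the vertebral and 0.115 CPM in the middle part. In the caudal part, ENSECAG00000013861 had 35 counts or 0.955 CPM (95% interval 0.665 to 1.33), ENSECAG00000018234 33 counts or 0.90 CPM (0.62 to 1.26) and ENSECAG00000000651 11 counts or 0.30 CPM (0.15 to 0.537). The intervals of the caudal part lie above those of the other parts for each of these genes. The genes were chosen from their counts in groups A and B, these libraries included, so this order follows from the choice. Among the 9 muscles of group A, the caudal part had the lowest CPM for ENSECAG00000013861 and the next to lowest for the other 2 genes. On plain library totals these ranks changed for ENSECAG00000013861 and ENSECAG00000018234. For ENSECAG00000013861, the caput longum of the triceps brachii (0.892 CPM) and the trapezius (0.946) then lay below the caudal part (0.959). The Poisson intervals compare libraries and hold no error beyond counting, and without molecular identifiers several reads can come from 1 molecule.

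ENSECAG00000014997 and ENSECAG00000017415 showed the opposite order, which also follows from their choice by group. ENSECAG00000014997 had 58 counts or 1.35 CPM (95% interval 1.03 to 1.75) in the vertebral part, 68 counts or 2.13 CPM (1.65 to 2.70) in the middle part and 3 counts or 0.0818 CPM (0.0169 to 0.239) in the caudal part. ENSECAG00000017415 had 238 counts or 5.54 CPM (4.86 to 6.29), 82 counts or 2.57 CPM (2.04 to 3.19) and 13 counts or 0.355 CPM (0.189 to 0.606) in the same order of parts. The vertebral part was 16.5 times (exact binomial 95% interval 5.38 to 82.4) above the caudal part for ENSECAG00000014997 and 15.6 times (8.97 to 29.8) for ENSECAG00000017415. The middle part was 26.0 times (8.53 to 129) and 7.24 times (4.01 to 14.2) above the caudal part. The 3 counts of ENSECAG00000014997 in the caudal part are at the floor of detection, so its ratios of 16.5 and 26.0 are not exact folds. Between the parts of group B, vertebral over middle was 2.16 (1.67 to 2.81) for ENSECAG00000017415, and 2.85 (2.21 to 3.71) on plain library totals. For ENSECAG00000014997 it was 0.634 (0.439 to 0.914), but 0.837 (0.58 to 1.21) on plain totals, an interval that includes 1.

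**Figure D4:**
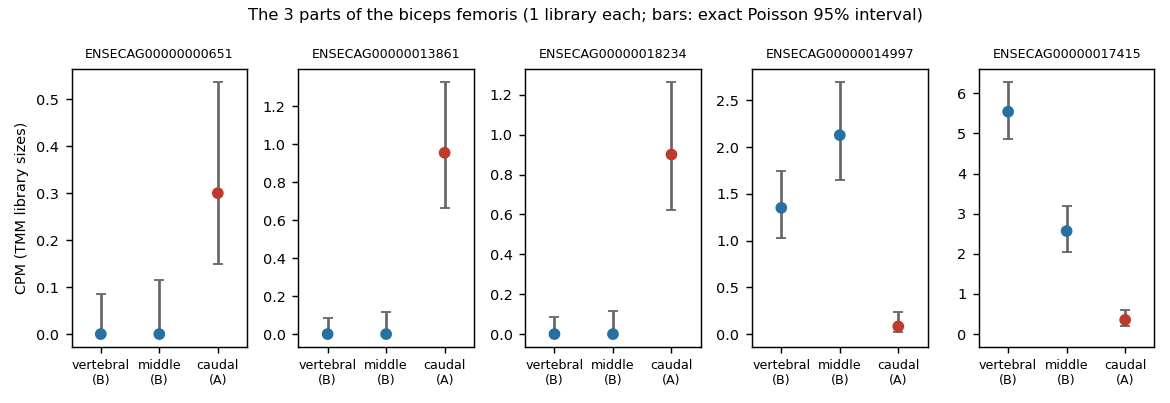
CPM (y axis, a separate scale in each panel) of the 5 genes in the vertebral, middle and caudal parts of the biceps femoris, 1 library each, with exact Poisson 95% intervals, group A in red and group B in blue. The 3 genes found in group A are at 0 in the vertebral and middle parts, and the other 2 genes are lowest in the caudal part.

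Position in the body comes from the names of the muscles, and within groups A and B it was not used to choose the genes. Group A has 7 anterior muscles, 1 posterior muscle and the trunk muscle, and group B has 3 anterior and 6 posterior muscles. With group as a term of the model and the longissimus left out, edgeR called 0 of 12824 genes (0%) between posterior and anterior muscles, with 718 genes at an unadjusted p below 0.05, and DESeq2 called 3. Neither ENSECAG00000014997 nor ENSECAG00000017415 was called. For ENSECAG00000014997 the log2FC was 0.25 (standard error 0.51), with an adjusted p = 0.977 in edgeR and an approximate 95% interval of -0.74 to 1.25 from the standard error. Its sign turned without the omohyoideus (-0.0081), the extensor carpi radialis (-0.022) or the semitendinosus (-0.077). For ENSECAG00000017415 the log2FC was 1.11 (standard error 0.45), where a positive value is higher in posterior muscles, with an adjusted p = 0.842 in edgeR and an interval of 0.23 to 1.98. The fits of the 3 genes found in group A are not used as tests for position, since group A has a single posterior muscle and group B almost no reads of these genes. In that muscle, the caudal biceps femoris, ENSECAG00000000651 had 11 counts against 15 to 25 in the anterior muscles of group A, ENSECAG00000013861 35 against 35 to 58 and ENSECAG00000018234 33 against 25 to 57.

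Within group B alone, ENSECAG00000017415 was at 1.13 ± 0.0776 CPM in the 3 anterior muscles, between 1.06 and 1.21, and at 2.90 ± 1.65 CPM in the 6 posterior muscles, between 1.22 and 5.54 (SD). On plain library totals the ranges overlapped, at 0.911 to 1.59 CPM in the anterior and 1.16 to 6.42 CPM in the posterior muscles. Of the posterior muscles, the vertebral and middle biceps femoris are parts of the same muscle counted separately. The log2FC was 1.34 (standard error 0.45), with an unadjusted p of 0.0113 and an adjusted p of 0.929 from edgeR, so this difference did not pass the threshold over all genes tested. ENSECAG00000014997 was at 1.16 ± 0.751 CPM in the anterior and 1.65 ± 1.08 CPM in the posterior muscles, with a log2FC of 0.49 (standard error 0.54), an interval of -0.58 to 1.55 and an adjusted p = 0.953 in edgeR. This log2FC was 0.11 without the semitendinosus and 1.17 without the pectoralis major. Its 2 ranges overlapped, with the pectoralis major at 2.02 CPM above 4 of the 6 posterior muscles. In this fit edgeR called 3 of 13357 genes (0.0225%), neither ENSECAG00000014997 nor ENSECAG00000017415 among them, and 7 without the pectoralis major.

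The extensors that lie low on the limb (extensor digitorum communis, extensor carpi radialis, extensor digitorum longus and extensor digitorum lateralis) were compared with the other 14 muscles, with group as a term. Of the 12738 genes tested, edgeR called 1252 (9.83%), with 4.92% of genes higher and 4.91% lower in the extensors, and 696 without the extensor digitorum lateralis. Neither ENSECAG00000014997 nor ENSECAG00000017415 was among them. The log2FC of ENSECAG00000014997 was -1.01 (standard error 0.44) with an adjusted p = 0.122 in edgeR, where a negative value is lower in the extensors, and an interval of -1.88 to -0.14. Without the extensor digitorum lateralis it was -1.54. For ENSECAG00000017415 the log2FC was -0.31 with an interval of -1.23 to 0.60 and an adjusted p = 0.683 in edgeR. It was -0.96 without the extensor digitorum lateralis and 0.040 without the vertebral biceps femoris. Group A has 1 such extensor, the extensor digitorum communis, so fits of the genes found in group A are not used as tests. This extensor had 58 counts of ENSECAG00000013861, against 35 to 55 in the other muscles of group A, and 25 of ENSECAG00000018234, against 33 to 57. In CPM, the infraspinatus was higher for ENSECAG00000013861, at 1.71 against 1.48 in this extensor.

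**Figure D5:**
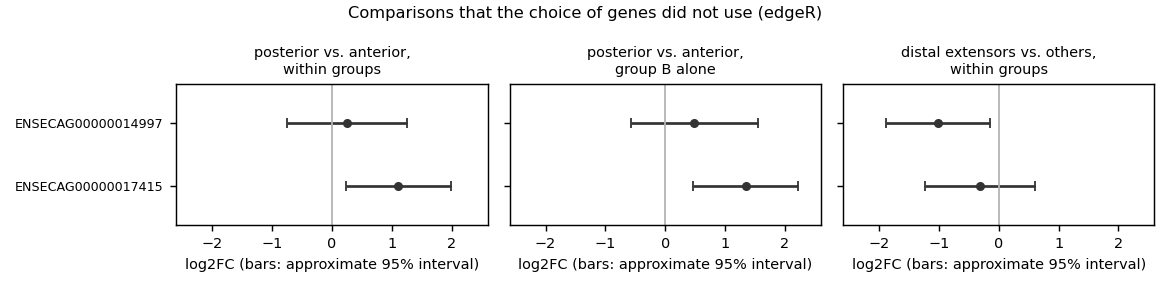
log2FC from edgeR (x axis, bars of approximate 95% intervals) of the 2 genes higher in group B (y axis) for posterior vs. anterior muscles within groups, the same within group B alone, and distal extensors vs. other muscles within groups. Neither gene passed an adjusted p of 0.05.

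The genes most like each of the 5 were sought by Pearson's r of log2 CPM over the 18 muscles among the genes that passed the filter, as a description. ENSECAG00000017274 was the most like ENSECAG00000013861 (r = 0.96), ENSECAG00000018234 (r = 0.97) and ENSECAG00000000651 (r = 0.96). The choice depended on the measure of likeness: with Spearman's rho, 0 of the 2 most like genes were shared for ENSECAG00000000651 and ENSECAG00000013861 and 1 for ENSECAG00000018234, and with log2(count + 1) 1 of 2 was shared for each. The next for ENSECAG00000013861 and ENSECAG00000018234 was ENSECAG00000008960, with r of 0.95 and 0.94. It had 1012 to 1362 counts in group A and 646 to 977 in group B, a graded difference in which neither group was near 0. The gene most like ENSECAG00000014997 was ENSECAG00000006594 (r = 0.93), with 6 to 19 counts in group A and 31 to 115 in group B, and the one most like ENSECAG00000017415 was ENSECAG00000002184 (r = 0.96), with 2 to 6 and 12 to 49 counts. All 18 libraries come from the same horse, and r over both groups includes the step between them.

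The 5 genes were of low to middle abundance. At 1.14 and 1.18 CPM in the median muscle of group A, ENSECAG00000013861 and ENSECAG00000018234 lay above 41.8% and 42.3% of the 17288 genes with a median above 0 there, and ENSECAG00000000651 above 34.0%, at 0.552 CPM. At 1.35 and 1.26 CPM in the median muscle of group B, ENSECAG00000014997 and ENSECAG00000017415 lay above 44.9% and 44.0% of 17636 genes. These ranks are by counts that were not divided by the length of the gene.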

How the data were processed

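RNA of 18 muscles of 1 horse was sequenced, with 1 library per muscle. The libraries were depleted of ribosomal RNA. Reads were filtered with NGSQCToolkit and mapped in 2 passes with STAR 2.5.2b on EquCab2 and its Ensembl annotation. The authors deposited the read counts per Ensembl gene as whole numbers without normalization. The setting for strand and the treatment of reads shared by similar or overlapping genes are not given in the sources used here, so such genes could exchange reads. All columns were matched to a muscle by the tissue label. Groups A and B are those of the study's clustering of the muscles. The 5 genes and the comparisons were chosen with earlier results of these data known.

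The count tests were run in edgeR 4.0.16 under R 4.3.3 (filterByExpr, TMM, glmQLFit and glmQLFTest, Benjamini-Hochberg adjustment over all genes tested). A gene was called where its log2FC was beyond 0.58 in either direction with an adjusted p under 0.05. Standard errors are the log2FC divided by the square root of F. Correlations used log2 CPM with a prior of 0.5 counts. A library with 3 counts or fewer was taken as at the floor. The rule for other genes named was the 2 genes most like each of the 5, of which the first and 1 other are given. The p-values measure the spread between muscles of 1 animal, with the parts of the biceps femoris counted as separate muscles. Alternatives were DESeq2 1.42.0, its size factors in edgeR, no count filter, CPM on plain totals, other measures of likeness, other uses of the longissimus and leaving out each muscle. The fits were tested on simulated data with 200 genes changed by a log2FC of 2. Per comparison, edgeR recovered 175 to 185 of these genes, with 7 to 10 false calls. DESeq2 recovered 182 to 190, with 19 to 39 false calls. Gene names, positions and sequences were not used here, and lists of fibre type, limb position, immediate early and cell type genes were not analysed, since no identifier could be paired with a name.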

Additional observations from a re-analysis of the deposited data

Results flagged for a closer look

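Of 10 sets of 9 muscles (5 genes in 2 groups, in CPM), 3 held a muscle far from the others by Dixon's criterion, which by chance marks about 5% of sets. All 3 are genes found in group A that had reads in a single muscle of group B and 0 in the other 8. The omohyoideus had 0.0452 CPM of ENSECAG00000000651, from 2 counts. The pectoralis major had 0.0230 CPM of ENSECAG00000013861, from 1 count, and 0.0689 CPM of ENSECAG00000018234, from 3 counts. These counts do not exceed the floor of 3 counts, and in such sets any muscle with a single read stands apart.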

How the results depend on the processing

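With single muscles left out, the median CPM in group A lay between 0.469 and 0.571 for ENSECAG00000000651, 1.11 and 1.21 for ENSECAG00000013861 and 1.14 and 1.23 for ENSECAG00000018234, and the ratio of medians of ENSECAG00000014997 between 8.08 and 10.97. On plain totals, the ratios of the vertebral and middle to the caudal biceps femoris stayed within their counting intervals, and vertebral over middle of ENSECAG00000017415 did not, at 2.85. The ratio of medians of ENSECAG00000017415 lay between 3.54 and 5.45 with single muscles left out. In none of the position and extensor fits was ENSECAG00000014997 or ENSECAG00000017415 past an adjusted p of 0.05, the lowest being 0.0657. The log2FC of ENSECAG00000014997 for position turned to -0.0081 without the omohyoideus, -0.022 without the extensor carpi radialis and -0.077 without the semitendinosus, and was at most 0.68, without the pectoralis major. For distal extensors, ENSECAG00000013861 turned to -1.14 without the extensor digitorum communis, the only extensor of group A, and was otherwise at most 0.31. ENSECAG00000018234 went from -1.01 to -2.21 without the same muscle and, for position, ENSECAG00000000651 from -1.13 to -2.59, ENSECAG00000013861 from -0.51 to -1.82 and ENSECAG00000018234 from -0.78 to -3.09 without the caudal biceps femoris, so these fits rest on 1 muscle and are not used as tests. The log2FC of ENSECAG00000017415 for distal extensors ranged from -0.96 without the extensor digitorum lateralis to 0.040 without the vertebral biceps femoris. The cause was not tested.

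Genes called for position within groups, 0 with edgeR, were 3 with DESeq2, 4 with no count filter, 3 with the longissimus counted as posterior, and 0 to 3 with single muscles left out, the most without the caput longum of the triceps brachii or the supraspinatus. Within group B they were 3, 11 with DESeq2, 7 with no filter, and 2 to 7 with single muscles left out. For distal extensors they were 1252, and 696 to 1436 with single muscles left out. With Spearman's rho, 0 of the 2 genes most like ENSECAG00000000651 and ENSECAG00000013861 were shared, 1 for ENSECAG00000018234 and ENSECAG00000014997, and 2 for ENSECAG00000017415. With log2(count + 1), 1 was shared for the 3 genes found in group A and 2 for the other genes. No paired analysis of the groups was run, since all libraries come from the same horse and only the biceps femoris has parts in both groups. Depth limits the 3 genes found in group A, at 10 to 58 counts per library.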

Other observations

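Other genes with low counts show a pattern of this kind. At least 1 count in every library of group A with 0 in every library of group B was found for 10 of 25239 genes (0.0396%). The opposite was found for 1 gene (0.00396%), ENSECAG00000025921, which was singled out after its values were seen. It had 3 to 146 counts in group B with a median of 23. None of the 5 genes described met either pattern. A median of at least 5 counts in group A with a median of 0 in group B was found for 12 genes (0.0475%), among them the 3 genes found in group A, and the opposite for 6 genes (0.0238%). The reads of ENSECAG00000017274 in group B lay in the omohyoideus, the extensor digitorum lateralis and the pectoralis major, and those of the 3 genes found in group A in the omohyoideus and the pectoralis major. These patterns were looked for after the counts were seen, and no test was run on them.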
